A study of Homo sapiens with 4 samples.

Results

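Expression of 10 genes of cell motility and invasion was followed in CWR22Rv1 cells after knockdown of the E3 ubiquitin ligase SIAH2. The genes were CD44, PLAU, PLAUR, ROCK1, ROCK2, RHOC, TNS3, FSCN1, CTTN and EZR, and the members were all probes annotated to them. Of the 10 genes, 9 had an annotated probe. They carried 17 of the 47228 probes on the array, and all 17 were bright enough to be tested, among 20750 tested probes. No probe annotated to PLAU was found here, and its expression was not analysed here.

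CWR22Rv1 cells are an established line of human prostate cancer, grown out from a xenograft that relapsed after castration of the host. All cells were infected with a pLKO.1 lentiviral vector, selected with puromycin at 1 ug/ml and grown in RPMI1640 with 10% FBS. The pLKO.1 group (2 arrays) carried the control vector, and the shSiah2 group (2 arrays) carried an shRNA against Siah2, so both groups shared the vector and the drug. Per the labels the cells were stable transfectants, and only 1 shRNA is named. The labels number the replicates without saying whether they were separate cultures, so every p-value below measures the spread between these arrays, which may be technical. For each probe, limma draws that spread toward the spread of all probes tested with it. An SE can therefore be larger or smaller than the probe's own SDs would give.

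Cell movement depends on adhesion to the matrix, on a contractile actin cytoskeleton and, for invasion, on proteases at the cell surface. CD44 is the receptor for the matrix polysaccharide hyaluronan and is linked to actin by ezrin. The urokinase receptor, encoded by PLAUR, holds urokinase (PLAU) at the surface, where it activates plasminogen. The GTPase RHOC activates the kinases ROCK1 and ROCK2, which drive myosin contraction, while fascin (FSCN1) bundles actin, cortactin (CTTN) promotes branched actin, and tensin 3 (TNS3) ties integrins to actin.

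The targeted gene, SIAH2, changed by -1.85 in log2 intensity (limma, adjusted p = 0.00117, SE 0.251), with signals of 334.5 and 490.5 on the pLKO.1 arrays against 185.2 and 196.8 on the shSiah2 arrays. It was -1.03 without background correction and -1.33 in the authors' value table, and passed in both. Between 42.1% and 43.7% of probes were detected per array, and the number of arrays limits the precision. Each cell type marker below stands by its brightest named probe, and further probes of a marker are not given here. Of 9 luminal epithelial markers, 8 had a named probe, and all were detected on all 4 arrays, among them KRT8, KRT18, EPCAM and CDH1. Of these 8, FOLH1, STEAP1, STEAP2 and TMEFF2 fell and 0 rose, while KRT8 (0.34), KRT18 (-0.09), EPCAM (0.27) and CDH1 (0.16) did not pass. The summed normalized intensity was 34392 and 36570 on the pLKO.1 arrays and between 18256 and 18529 on the shSiah2 arrays. TMEFF2 alone made 15394.5 and 16491.9 of it against 1393.4 and 1496.5. The defining markers PTPRC and CD3E of leukocytes, PECAM1, VWF and CDH5 of endothelium, and KRT5, KRT14 and TP63 of basal cells carried no named probe here. CD68 (0.18) and CD14 (0.80) of leukocytes and KRT15 (-0.78) of basal cells did not pass. LYZ of leukocytes and KDR and TEK of endothelium, each detected on 1 array, were not tested. Fibroblasts and smooth muscle also express CD44 and PLAUR. Of 8 of their markers, 6 had a named probe, and none stood for COL3A1 and PDGFRB. LUM (1.32) and ACTA2 (1.10) rose and DCN (-1.98) fell, TAGLN (0.46) and COL1A1 (0.11) did not pass, and COL1A2, detected on 1 array, was not tested. Their summed normalized intensity was 1915 and 2037 on the pLKO.1 arrays and 3697 and 4056 on the shSiah2 arrays, of which LUM made 1061 and 1167 against 2486 and 3100. The part of these markers in the results below was not tested.

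Among the motility probes, 3 rose and 1 fell in shSiah2 cells, each from a different gene. PLAUR, CD44 and ROCK1 rose on 1 of their 2 probes each, and TNS3 fell on its only probe. The remaining 13 probes, including all 10 of ROCK2, RHOC, FSCN1, CTTN and EZR, did not pass the threshold of 0.05 on the adjusted p (limma, Benjamini-Hochberg over all tested probes). The genes were chosen with earlier results of these data known. The shares and medians that follow describe the chosen probes, and cannot show that motility genes changed more than others. The 4 called probes of 17 stand beside 6.19% of all tested probes called, 2.47% higher and 3.72% lower. The median change was 0.13 over the 17 probes and 0.02 over all tested probes, and the median size of a change was 0.35 and 0.29. The arrays of the groups did not overlap for 6 higher and 4 lower probes of the 17, beside 26.2% and 24.1% of all tested probes and 50.3% in either direction. Values of different probes cannot be set against each other as levels, since each probe has its own brightness.

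**Figure D1:**
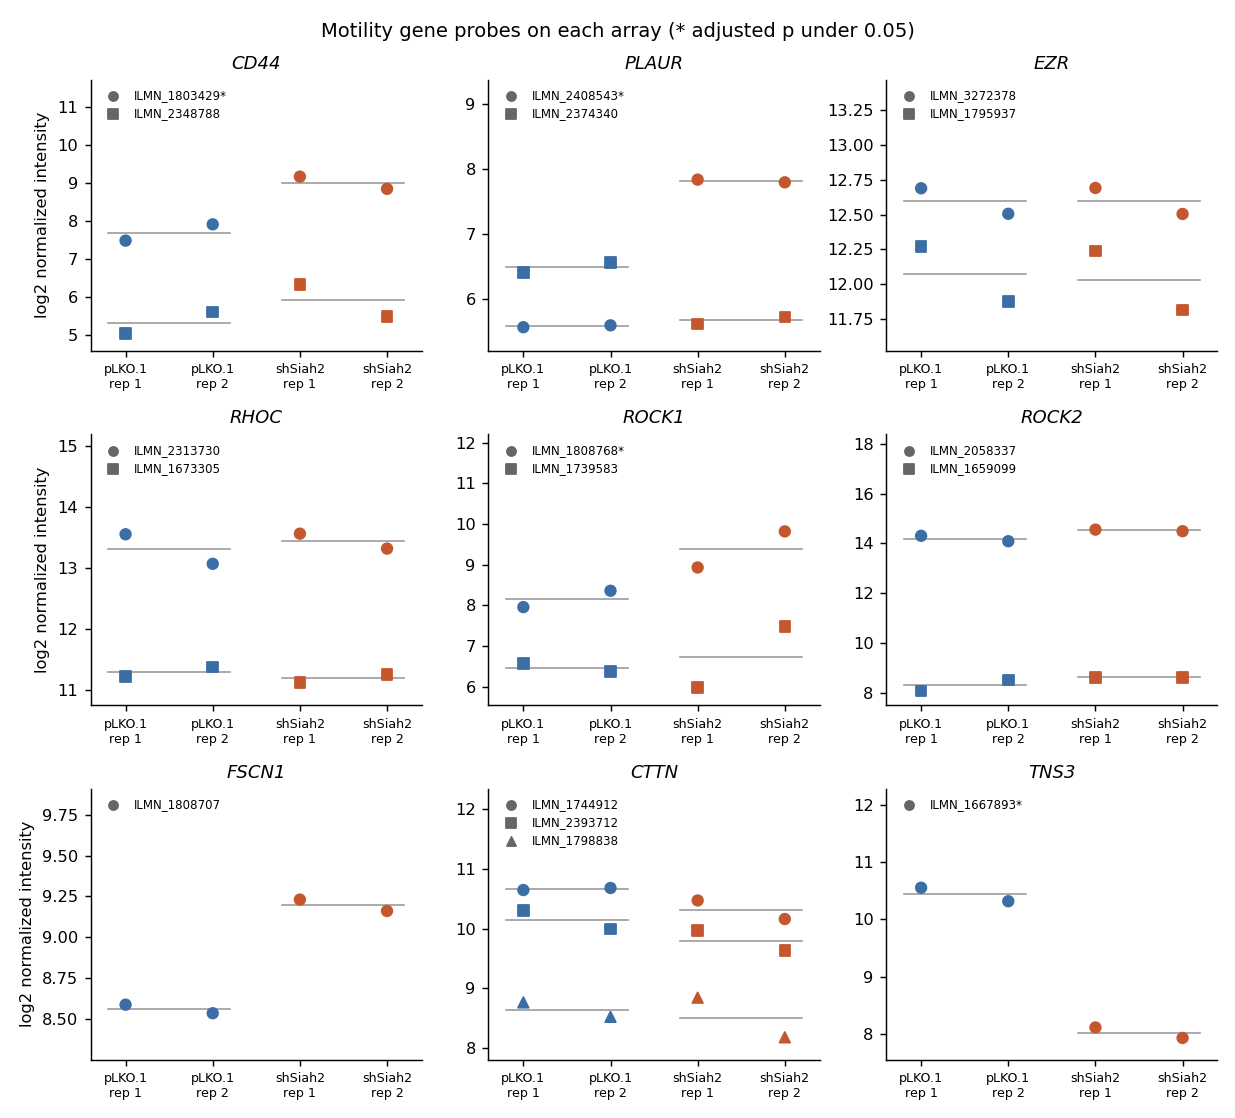
Log2 normalized intensity (vertical axes, each with its own range) of the 17 probes of 9 motility genes on the 2 pLKO.1 arrays (blue) and the 2 shSiah2 arrays (orange). Marker shapes are probes, grey lines are group means, and an asterisk marks an adjusted p under 0.05. The PLAUR probes move in opposite directions, while TNS3 lies between 10.32 and 10.55 on pLKO.1 arrays and between 7.93 and 8.11 on shSiah2 arrays.

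The 3 genes with a probe that rose each have 1 start in the RefSeq promoter table (GRCh38.p14), and their windows from 250 bases before to 50 bases after the start are shown to compare what the rising genes carry upstream. They were searched on both strands for TGANTCA, the AP-1 motif, and GGGCGG, the GC box bound by Sp1. Capitals mark the matches, which did not overlap between motifs, and each sequence runs 5′ to 3′ on the gene's strand.
PLAUR promoter, chr19:43670120-43670419 (minus strand): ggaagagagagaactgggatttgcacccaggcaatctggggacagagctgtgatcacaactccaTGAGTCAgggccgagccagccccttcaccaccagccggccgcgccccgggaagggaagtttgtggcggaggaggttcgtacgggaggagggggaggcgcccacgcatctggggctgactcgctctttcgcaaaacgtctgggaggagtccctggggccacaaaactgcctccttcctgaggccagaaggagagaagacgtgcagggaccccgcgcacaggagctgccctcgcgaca
CD44 promoter, chr11:35138921-35139220 (plus strand): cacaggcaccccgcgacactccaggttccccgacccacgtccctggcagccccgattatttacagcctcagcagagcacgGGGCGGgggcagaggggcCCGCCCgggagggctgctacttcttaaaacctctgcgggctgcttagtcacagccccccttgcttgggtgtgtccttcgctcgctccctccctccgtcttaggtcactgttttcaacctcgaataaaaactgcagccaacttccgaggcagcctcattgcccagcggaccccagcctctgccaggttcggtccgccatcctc
ROCK1 promoter, chr18:21111764-21112063 (minus strand): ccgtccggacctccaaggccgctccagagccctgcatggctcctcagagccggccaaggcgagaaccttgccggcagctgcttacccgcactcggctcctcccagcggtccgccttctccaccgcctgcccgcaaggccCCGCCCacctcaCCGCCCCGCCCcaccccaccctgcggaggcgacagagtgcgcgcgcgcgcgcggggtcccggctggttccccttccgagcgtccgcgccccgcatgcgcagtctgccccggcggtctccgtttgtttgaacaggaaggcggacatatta

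PLAUR was the only one of these 3 with a TGANTCA match, which begins at position -186 from the start. Of 35116 windows of the same length, 7.71% held that motif. The windows of CD44 and ROCK1 held 2 and 3 GGGCGG matches and that of PLAUR held 0, beside 45% of all windows with at least 1. TNS3, the gene that fell, has 3 windows in the table, with 2 GGGCGG matches in 1 of them and no TGANTCA match. These matches describe the letters and say nothing of binding in these cells.

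PLAUR gave the sharpest contrast, with probes that moved in opposite directions. The probe ILMN_2408543 had normalized log2 intensities of 5.57 and 5.60 on the pLKO.1 arrays and 7.84 and 7.80 on the shSiah2 arrays. Both shSiah2 arrays lay far above both controls, and replicates nearly coincided. It rose by 2.24, a 4.72-fold change (SE 0.237, adjusted p = 0.00019), from 5.58 ± 0.0202 to 7.82 ± 0.0294 (SD, n = 2 per group).

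The other PLAUR probe, ILMN_2374340, read 6.42 and 6.57 on the pLKO.1 arrays and 5.62 and 5.73 on the shSiah2 arrays. Here the controls were the higher ones, again without overlap. Its change was -0.82 (SE 0.240, 95% interval -1.34 to -0.30), which missed the threshold (adjusted p = 0.0687), but passed with the replicate number as a block (adjusted p = 0.049). The platform annotates the probes to different RefSeq transcripts of PLAUR, and as background the gene is known to make alternative transcripts, some without the membrane anchor. Which exons the probes match was not analysed here.

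Both PLAUR probes were dim. The deposited signals of the first were 143.1 and 154.0 in controls against 348.1 and 313.3 in knockdown cells, and those of the second were 175.9 and 213.8 against 159.7 and 162.4, where the array medians lay between 130.8 and 144.3. All 4 arrays nevertheless detected both probes. Without background correction the changes were 1.04 (adjusted p = 0.00165) and -0.30 (adjusted p = 0.241), so the sizes depend on that step.

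CD44 rose in knockdown cells on 1 of its 2 probes, and the other did not pass, with overlapping groups. The brighter probe, ILMN_1803429, read 7.49 and 7.91 on the pLKO.1 arrays and 9.17 and 8.85 on the shSiah2 arrays. The groups did not overlap, with signals of 255.8 and 392.4 against 716.0 and 520.4. It rose by 1.31, a 2.48-fold change (SE 0.262, adjusted p = 0.0127), from 7.70 ± 0.304 to 9.01 ± 0.229 (SD, n = 2 per group). Without pLKO.1 replicate 1, the lower control, the change was 1.10 and no longer passed (adjusted p = 0.105).

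The dimmer CD44 probe, ILMN_2348788, read 5.04 and 5.60 in controls and 6.33 and 5.49 in knockdown cells. Only shSiah2 replicate 1 stood above the controls, and the groups overlapped. Its change was 0.59 (95% interval -0.10 to 1.28, adjusted p = 0.317 by limma). The array of pLKO.1 replicate 1 did not detect it. Its change was 1.01 without shSiah2 replicate 2 and 0.17 without shSiah2 replicate 1, and neither passed.

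EZR encodes ezrin, which links CD44 and other membrane proteins to actin. Its brighter probe read 12.69 and 12.51 in controls and 12.69 and 12.50 in knockdown cells, and the dimmer one 12.27 and 11.87 against 12.24 and 11.81. On both probes the replicates numbered 1 were the higher arrays of their group, and the groups overlapped almost completely. The 95% intervals of the change were -0.53 to 0.53 and -0.63 to 0.53.

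RHOC, the GTPase upstream of the ROCK kinases, was bright on both probes. The first, ILMN_2313730, read 13.55 and 13.07 in controls and 13.56 and 13.32 in knockdown cells, and the second, ILMN_1673305, read 11.22 and 11.38 against 11.12 and 11.26. Groups overlapped on both, with changes of 0.13 (95% interval -0.44 to 0.70, adjusted p = 0.835) and -0.11 (95% interval -0.63 to 0.42, adjusted p = 0.852).

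ROCK1 rose on its brighter probe. ILMN_1808768 read 7.95 and 8.36 on the pLKO.1 arrays and 8.93 and 9.82 on the shSiah2 arrays. The groups did not overlap, but shSiah2 replicate 2 stood well above the others. The probe rose by 1.22, a 2.32-fold change (SE 0.311, adjusted p = 0.041), from 8.16 ± 0.284 to 9.37 ± 0.628 (SD, n = 2 per group). Here the limma SE is smaller than the probe's own SDs would give, so the call leans on the spread of other probes. The call was lost without shSiah2 replicate 2 (0.77, adjusted p = 0.230), without pLKO.1 replicate 1 (1.02, adjusted p = 0.212) and with no filter on dim probes (adjusted p = 0.146).

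The second ROCK1 probe, ILMN_1739583, is annotated to the same transcript and read 6.56 and 6.37 in controls and 5.98 and 7.48 in knockdown cells. The knockdown arrays lay on opposite sides of both controls, with the same array, shSiah2 replicate 2, on top. Its change was 0.27 (95% interval -0.59 to 1.12, adjusted p = 0.766), and it was -0.48 without shSiah2 replicate 2 and 1.01 without shSiah2 replicate 1. The RefSeq table also lists a pseudogene, ROCK1P1, and whether the probes distinguish it was not analysed here.

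ROCK2, the related kinase, gave nearly the same change on both probes. ILMN_2058337 read 14.31 and 14.09 in controls and 14.55 and 14.49 in knockdown cells, and ILMN_1659099 read 8.08 and 8.52 against 8.62 and 8.63. The shSiah2 arrays lay above both controls each time. The changes of 0.33 (95% interval -0.20 to 0.85, adjusted p = 0.491) and 0.32 (95% interval -0.23 to 0.88, adjusted p = 0.517) did not pass.

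FSCN1, which bundles actin in filopodia, had 1 probe, ILMN_1808707, with 8.59 and 8.54 in controls and 9.23 and 9.16 in knockdown cells. The groups stood apart with little spread within each, at 8.56 ± 0.0370 and 9.20 ± 0.0493 (SD, n = 2 per group). The change of 0.63 (95% interval 0.12 to 1.15) did not pass over all probes (unadjusted p = 0.0206, adjusted p = 0.148 by limma), and 21.1% of all tested probes had an unadjusted p under 0.05. The RefSeq table lists a pseudogene for FSCN1 and for EZR too.

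CTTN, a promoter of branched actin at invadopodia, had 3 probes, each slightly lower on average in knockdown cells. ILMN_1744912 read 10.64 and 10.68 against 10.47 and 10.16, and ILMN_2393712 read 10.30 and 9.99 against 9.97 and 9.63. Neither pair of groups overlapped, while the third probe, ILMN_1798838, did overlap at 8.76 and 8.52 against 8.84 and 8.18. The lowest value of each probe was on shSiah2 replicate 2. The changes were -0.35, -0.35 and -0.13, and adjusted p-values lay between 0.467 and 0.842.

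TNS3 showed the largest change of the 17 probes. ILMN_1667893 read 10.55 and 10.32 on the pLKO.1 arrays and 8.11 and 7.93 on the shSiah2 arrays, from signals of 1412.0 and 1671.7 to 396.9 and 330.0. All 4 arrays detected it, and the groups were far apart. It fell by 2.42 (SE 0.245, adjusted p = 0.000131), which makes the controls 5.34-fold higher, from 10.44 ± 0.167 to 8.02 ± 0.129 (SD, n = 2 per group). It passed in all 14 alternatives, at -2.54 to -1.98. These include averaging a gene's probes, which leaves the values of its only probe as they are.

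**Figure D2:**
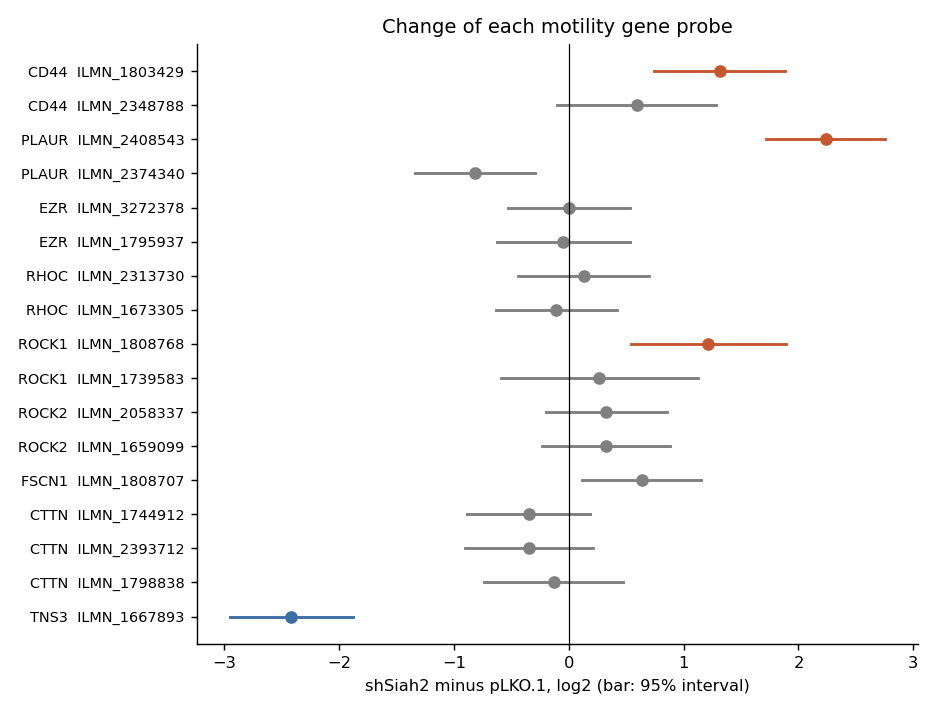
Change of each of the 17 probes, as the shSiah2 mean less the pLKO.1 mean in log2 units (horizontal axis), with 95% intervals from limma. Orange marks probes that rose, blue the probe that fell and grey the 13 that did not pass; PLAUR holds a change of 2.24 and one of -0.82.

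Whether probes of 1 gene changed unequally was tested within arrays. The disagreement of the PLAUR and CD44 probes was known from these same arrays when the test was chosen, so their pairs measure its size and are not independent evidence of it. For every gene with several tested probes, the difference between its brightest probe and each other probe was taken within each array and compared between groups with limma, over 3990 pairs from 3182 genes. A difference of changes shows that probe readings moved unequally, and does not say which of them follows the gene. Near the background the size of a change depends on the correction, and the part of brightness in such differences was not tested. Of all pairs, 41 (1.03%) passed, each from a different gene, and 376 had an unadjusted p under 0.05. Of the 8 motility pairs, 1 passed.

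That pair was PLAUR. Its bright-minus-other difference was -0.85 and -0.97 on the pLKO.1 arrays and 2.22 and 2.07 on the shSiah2 arrays. The position of 0 on this scale depends on each probe's brightness, and only the change of the difference is read. ILMN_2408543 counts as the brighter probe by its mean over all 4 arrays, which is higher only through the shSiah2 arrays. The positive sign of the PLAUR difference therefore follows from the change itself. The change of the difference was 3.06 (SE 0.315, 95% interval 2.40 to 3.72, adjusted p = 1.1e-05), the third largest in size among the 3990 pairs. It passed in all 12 alternatives in which both probes were tested, with 1.34 without background correction as the lowest value.

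The ROCK1 pair differed by 0.95 (95% interval 0.23 to 1.67) and the CD44 pair by 0.72 (95% interval 0.04 to 1.40), and neither passed over all pairs (adjusted p = 0.313 and 0.496). The within-array differences for ROCK1 were 1.39 and 1.99 in controls against 2.95 and 2.34 in knockdown cells. For CD44 they were 2.45 and 2.31 against 2.84 and 3.36. In both genes the brighter probe moved more. The dimmer probes had signals between 124.3 and 192.0 for CD44 and between 174.9 and 273.2 for ROCK1, where array medians lay between 130.8 and 144.3.

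The other 5 pairs, from ROCK2, RHOC, EZR and CTTN, differed by -0.22 to 0.24, with adjusted p-values of 0.9 or above. Over the whole array, 29.7% of pairs had probes with opposite signs, as PLAUR, RHOC and EZR did, the latter with changes of 0.00063 and -0.05. When each gene was represented by the mean of its probes, an alternative chosen after seeing the data, TNS3 alone of the 9 genes passed. TNS3 has a single probe, so averaging left its change at -2.42 and was no test of it. PLAUR then lay at 0.71 (adjusted p = 0.0645), CD44 at 0.95 (adjusted p = 0.0552) and ROCK1 at 0.74 (adjusted p = 0.206).

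**Figure D3:**
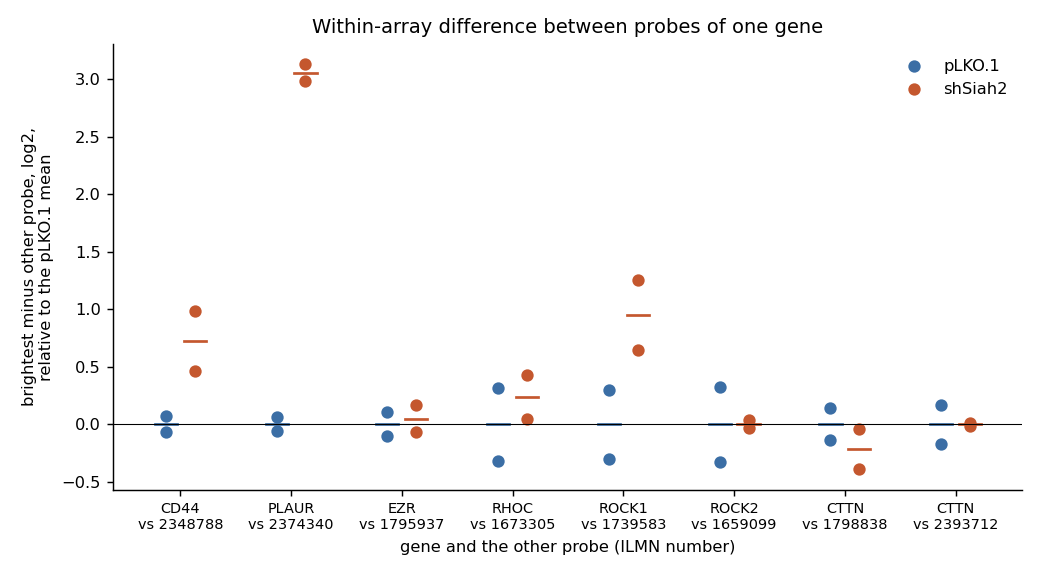
Within-array difference between a gene's brightest probe and another of its probes, log2, relative to the pLKO.1 mean (vertical axis), for the 8 motility pairs. Points are arrays and bars group means; the shSiah2 mean of PLAUR lies at 3.06, and those of ROCK1 and CD44 at 0.95 and 0.72.

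**Figure D4:**
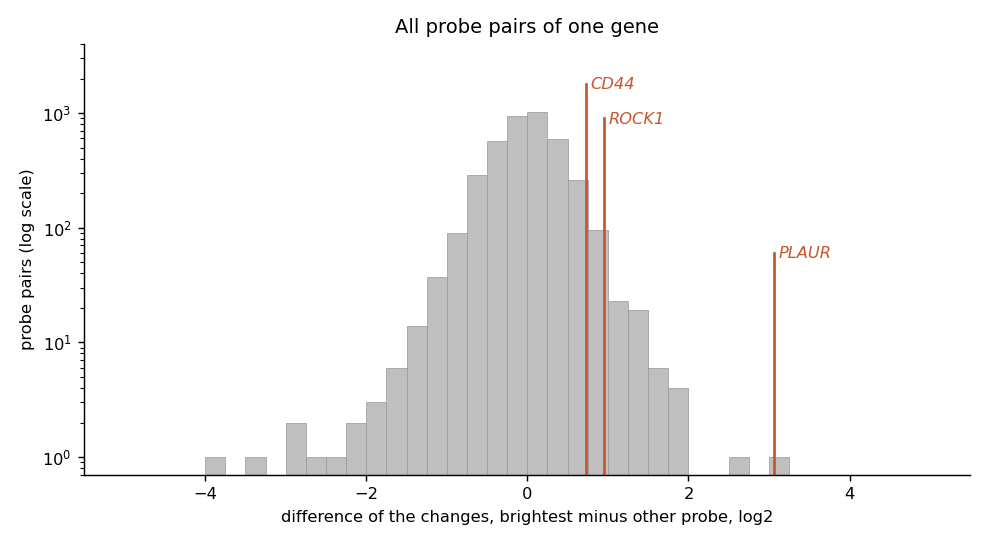
Number of probe pairs (log axis) by the difference of their changes, brightest minus other probe, over all 3990 pairs. Vertical lines mark CD44 at 0.72, ROCK1 at 0.95 and PLAUR at 3.06; most pairs lie near 0.

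The pathways around these genes were described with 5 lists, each gene by its brightest tested probe. These lists too were chosen with earlier results of these data known, so their counts only describe them. Of 79 listed genes tested, 4 rose and 5 fell, beside 2.72% and 4.51% of all 11894 named genes tested, or 7.24% in either direction. The list genes had a median change of -0.12, and all named genes one of 0.01. Members account for 4 of the 9 calls. Without them, 1 of 71 genes rose and 4 fell, a share near that of all named genes, with a median of -0.13.

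Of 12 listed genes of plasminogen activation, the pathway of PLAUR, 5 were tested, and 1 rose and 2 fell. PLAUR is counted here by the probe with the higher mean over all 4 arrays, which is the higher only through the shSiah2 arrays, and its other probe would count as not passed at -0.82. S100A10 fell by 1.51 (SE 0.240, adjusted p = 0.00333), from 14.64 and 14.81 to 13.25 and 13.18. ANXA2 fell by 0.96 (adjusted p = 0.0376). The other tested probes lay at -1.49 for S100A10 and -0.64 for ANXA2. As background, the products of S100A10 and ANXA2 form a complex that binds plasminogen at the cell surface. The inhibitor gene SERPINE2, named after its value was seen, lay at 0.72 (adjusted p = 0.106).

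Of 11 genes of hyaluronan, CD44 and ERM proteins, CD44 was the only call, and the median was 0.00063. Of 20 genes of the ROCK pathway and myosin II, ROCK1 was the only call, and the median was -0.06. CDC42BPB, a kinase related to ROCK and named after its value was seen, lay at 0.95 (adjusted p = 0.0565).

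Among 24 actin bundling, branching and invadopodia genes, 0 rose and 2 fell (median -0.26). WASF3, an activator of branched actin, fell by 1.01 (adjusted p = 0.0402), and LCP1, an actin-bundling plastin, by 0.93 (adjusted p = 0.0406). Of 19 tensin and focal adhesion genes (median -0.06), TNS3 fell and NEDD9, a scaffold of focal adhesion signalling, rose by 1.13 (adjusted p = 0.03), with its other probes at 1.24 and 0.85.

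Most of these calls did not hold with an array left out. Without pLKO.1 replicate 1 or without shSiah2 replicate 2, 4 list genes passed in place of 9. S100A10 passed in all 13 of its alternatives, whereas ANXA2, LCP1, WASF3 and NEDD9 missed the threshold in at least 1. ANXA2 and LCP1 missed it whichever array was left out, with changes of -1.05 to -0.87 and -0.97 to -0.89, close to those over all 4 arrays. Without pLKO.1 replicate 1, ANXA2 at -1.05, LCP1 at -0.95 and WASF3 at -0.79 did not pass. Without shSiah2 replicate 2 these did not pass either, at -0.996, -0.97 and -1.12, nor did NEDD9 at 1.02. Without pLKO.1 replicate 2, ANXA2 (-0.87), LCP1 (-0.91) and NEDD9 (0.85) missed it, and without shSiah2 replicate 1 ANXA2 (-0.92), LCP1 (-0.89) and WASF3 (-0.90).

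**Figure D5:**
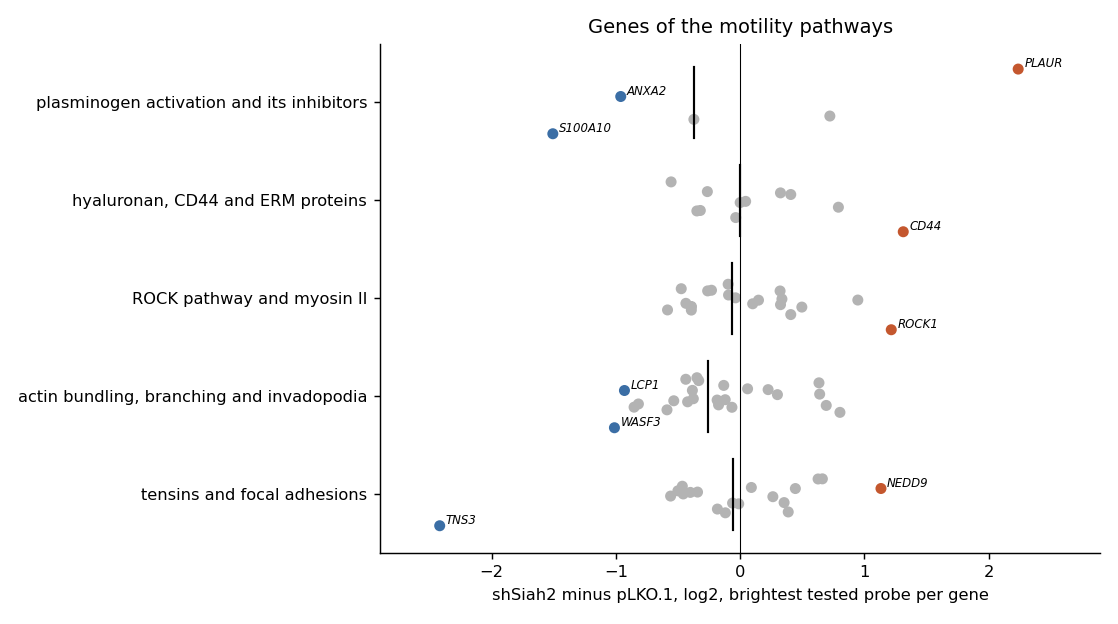
Change of each tested gene of the 5 pathway lists, as the shSiah2 mean less the pLKO.1 mean in log2 units (horizontal axis), by its brightest probe. Orange genes rose, blue genes fell, grey genes did not pass, and black bars are list medians; 4 genes rose, 5 fell and 70 did not pass.

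Likeness to the called members was measured as the root mean square difference of centred log2 values over the 4 arrays, across all named genes that are no members. With 4 arrays in 2 groups, such likeness mostly reflects a similar change. The PLAUR probe that rose was closest to RNU6ATAC, at 0.0697, and to FHL2, at 0.0766, which changed by 2.26 and 2.14. CD44 was closest to ZNF10 (0.0601) and EML1 (0.0812), with changes of 1.25 and 1.24. ROCK1 was closest to PRRC2C (0.077) and CCAR1 (0.0943), which share its high value on shSiah2 replicate 2 and did not pass at 1.12 and 1.14. TNS3 was closest to VGF (0.0599) and PLA2G3 (0.0868), which fell, with changes of -2.31 and -2.53.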

How the data were processed

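Total RNA of 4 samples was measured on Illumina bead arrays. The authors deposited, per the file headers, an intensity on a linear scale and a detection p-value for each of 47228 probes and array, and a value table of 24733 probes. Set against the intensities, that table's deposited values are log2, with their scaling between arrays unknown. The array software is not given in the sources used here.

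In limma 3.58.1 (R 4.3.3), normexp estimated the background from detection p-values (offset 16), followed by quantile normalization and log2. Tests covered probes detected (p under 0.05) on 2 or more arrays, with a two-sided lmFit and eBayes comparison of the groups, no covariate, with Benjamini-Hochberg adjustment over all tested probes, and the same for probe pairs over all pairs. Intervals are 95% and unadjusted. The code was tested on simulated data. "Rose" and "fell" mean an adjusted p under 0.05.

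Names came from the platform annotation, updated by Entrez ID to RefSeq symbols: 18007 probes had 1 symbol, 4 several and 29217 none here. Of the gene lists drawn up, 1 is not reported here. The members and lists were chosen with earlier results of these data known. The text names all member probes, SIAH2, each called list gene, and the 2 genes most like each called member. It also names cell type markers, and outside this rule SERPINE2 and CDC42BPB, picked after their values were seen. Alternatives covered background correction, normalization, the authors' value table, filters, a replicate block and leaving out each array.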

Additional observations from a re-analysis of the deposited data

How the results depend on the processing

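With 2 arrays per group, dim probes and unknown independence of the cultures limit what can be told apart, and near the background the size of a change depends on the correction. The TNS3 probe passed in all 14 of its alternatives, among them the averaging of probes, which cannot alter a gene with a single probe. The cause of the changes below was not tested, except that leaving out an array or averaging probes changes the data entering the test.

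Across all probes the number called was 1284, it fell to 640 with no filter on dim probes, and it ranged from 520 to 1329 when single arrays were left out. Of the motility probes, 2 to 4 passed when single arrays were left out. Of the pathway genes, 9 passed, 14 without background correction, 16 with an offset of 50, 15 in the authors' value table, 4 with no filter and 4 to 8 with an array left out. Of the probe pairs, 41 passed, 64 with an offset of 50, 24 with 75th percentile scaling, 27 with the stricter filter, 76 with the replicate block and 4 to 48 with an array left out.

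The CD44 probe ranged from 1.10 to 1.53 with an array left out, PLAUR from 2.22 to 2.26 and ROCK1 from 0.77 to 1.66. The PLAUR probe that rose moved more with the processing. Its change was 1.67 with an offset of 50, 1.44 in the authors' value table and 1.04 without background correction. ROCK1 stayed at 1.22 but did not pass with no filter on dim probes (adjusted p = 0.146). As means over a gene's probes, chosen after seeing the data, CD44 (0.95), PLAUR (0.71) and ROCK1 (0.74) did not pass. The PLAUR pair ranged from 2.98 to 3.13 with an array left out. Neither it nor the PLAUR probe that rose was tested under the stricter filter.

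The labels do not say whether arrays with the same replicate number belong together. Over all tested probes the differences between replicates 1 and 2 correlated at 0.089 between the groups. That value cannot tell whether such arrays shared a culture or a batch. With the number as a replicate block 1815 probes passed in place of 1284, 5 of them motility probes.

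Signs turned only for values that did not pass. The EZR probe ILMN_3272378 was -0.054 with cyclic loess, -0.149 with 75th percentile scaling and -0.145 in the authors' value table, and RHOC ILMN_2313730 was -0.011 and -0.0082 in the last of these settings. The CTTN pair with ILMN_2393712 was -0.0092 without background correction, -0.0023 with an offset of 50, -0.0020 with cyclic loess, -0.018 with 75th percentile scaling and -0.022 in the authors' table, and the ROCK2 pair was -0.140 and -0.088 in the last pair of settings. With an array left out the ranges were -0.093 to 0.094 and -0.258 to 0.166 for the EZR probes and -0.112 to 0.372 for RHOC ILMN_2313730. They were -0.464 to 0.200 for CTTN ILMN_1798838 and -0.481 to 1.01 for ROCK1 ILMN_1739583. For pairs they were -0.169 to 0.171 for CTTN, -0.327 to 0.329 for ROCK2, -0.072 to 0.165 for EZR and -0.082 to 0.557 for RHOC. Of 526 comparisons of 41 tested results with their alternatives, 449 kept direction and side of the threshold.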
